A study of Homo sapiens with 6 samples.

Results

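The nucleic acid sensors of the cell interior and the proteins that relay their signal were compared between A431CT and Dsg2KO cells at the RNA level. The genes are DDX58 (also called RIGI), IFIH1, DHX58, TLR3, CGAS, MAVS, TBK1, IKBKE, IRF3 and IRF7, which were picked by name from the deposited count table, so that 10 of its 21462 genes are described here. A431 is a human epidermoid carcinoma line of keratinocyte origin. The A431CT cells have the wild-type genotype according to the labels, the Dsg2KO cells were made from A431 by CRISPR/Cas9 editing of DSG2, and both were grown in DMEM with fetal bovine serum, with no infection or added nucleic acid named for the sequenced cells. Polyadenylated RNA of 3 replicates per line was sequenced, both lines came from another laboratory, and the sources used here do not state whether the edited line is a single clone. An effect of the loss of Dsg2 and any other difference between the lines therefore cannot be told apart.

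RNA made by viruses, or cellular RNA and DNA that end up in the wrong compartment, are detected by a small set of receptors. RIG-I (from DDX58), MDA5 (from IFIH1) and LGP2 (from DHX58) are helicases that bind double-stranded RNA in the cytosol, TLR3 binds it in endosomes, and cGAS (from CGAS) binds DNA and makes the second messenger that activates STING. RIG-I and MDA5 signal through MAVS on mitochondria to the kinases TBK1 and IKKε (from IKBKE), which phosphorylate IRF3 and IRF7, the factors that switch on interferon genes. Several of the receptors are themselves encoded by interferon-stimulated genes, and keratinocytes are known to carry most of this machinery.

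The 6 libraries held between 12845719 and 16255692 counts, and all 10 genes passed the low-count filter and were tested. Levels are given as CPM, the counts for each 1000000 counts of a library after edgeR's TMM scaling. Changes are log2 fold changes of Dsg2KO over A431CT from edgeR's quasi-likelihood test, with Benjamini-Hochberg adjustment over all 12857 tested genes. A gene passed both thresholds where its adjusted p was under 0.05 and its log2 fold change was 0.5 or more in size. DSG2 itself, the edited gene, was at 323 ± 6.08 CPM (SD, n = 3) in A431CT and 51.9 ± 2.88 (SD, n = 3) in Dsg2KO cells. Of the keratinocyte markers, KRT5 was at 630.2 and 575 CPM in the respective lines, TP63 at 210.4 and 207 CPM and CDH1 at 369 and 447 CPM, while KRT14 was at 0.08 CPM in A431CT and at 0 in Dsg2KO cells. Of the 10 listed, 9 were tested and KRT6A alone passed both thresholds, as lower, where 3.03% of all tested genes did. It fell from 8.44 to 4.12 CPM (log2 fold change -1.03). By edgeR's adjusted p alone 3 of these markers were higher and 3 lower, against 14.3% and 15.3% of all tested genes. SFN was among the lower with -0.46. Of the 10 leukocyte markers 6, and of the 10 fibroblast and endothelial markers 6, were at or under 3 counts in every library. The summed level of the leukocyte list was from 239 to 244 CPM in A431CT and from 153 to 165 CPM in Dsg2KO cells, nearly all of it from CD68. Of the 2 tested genes of this list, CD68 passed both thresholds as lower (log2 fold change -0.62, adjusted p = 9.24e-08, edgeR), where 3.03% of all tested genes did. LYZ went from 2.02 to 3.19 CPM and did not pass (log2 fold change 0.66, adjusted p = 0.0765, edgeR). PTPRC was at 0.353 and 0.188 CPM on average in the respective lines, ITGAX at 0.482 and 0.871 CPM, and CD3E at 0. The summed level of the fibroblast and endothelial list was from 8.76 to 11.6 CPM in A431CT and from 15.3 to 16.0 CPM in Dsg2KO cells. Of its 3 tested genes, PECAM1 and CDH5 passed both thresholds as higher, where 2.99% of all tested genes did. DESeq2 called 1 gene of this list as higher, against 345 of all 12857 tested genes. The part of these markers in the results was not tested.

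Among the 10, the cytosolic RNA helicases and a kinase had an adjusted p under 0.05 by edgeR. The helicase DHX58 kept it in only 8 of 13 refits. DDX58 and IFIH1 passed both thresholds as higher in Dsg2KO cells, where 2.99% of all tested genes did, and no gene of the set passed as lower, where 3.03% did. By adjusted p alone DHX58 was also higher and TBK1 was lower, which makes 3 higher and 1 lower of 10, against 14.3% higher and 15.3% lower over all tested genes. The median log2 fold change of the 10 genes was 0.05, against -0.0048 over all tested genes. TLR3, CGAS, MAVS, IKBKE, IRF3 and IRF7 did not pass. DESeq2 called 2 higher and 0 lower past both thresholds, against 345 higher and 337 lower of all 12857 tested genes. By edgeR's unadjusted p under 0.05 there were 3 higher and 1 lower, against 19.5% and 20% of all tested genes. The study's text names IFIH1 from the same libraries, so its change here is not independent evidence. The study calls the 3 libraries per line biological replicates, the labels do not say what separates them, and the p-values measure the spread between these libraries.

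**Figure D1:**
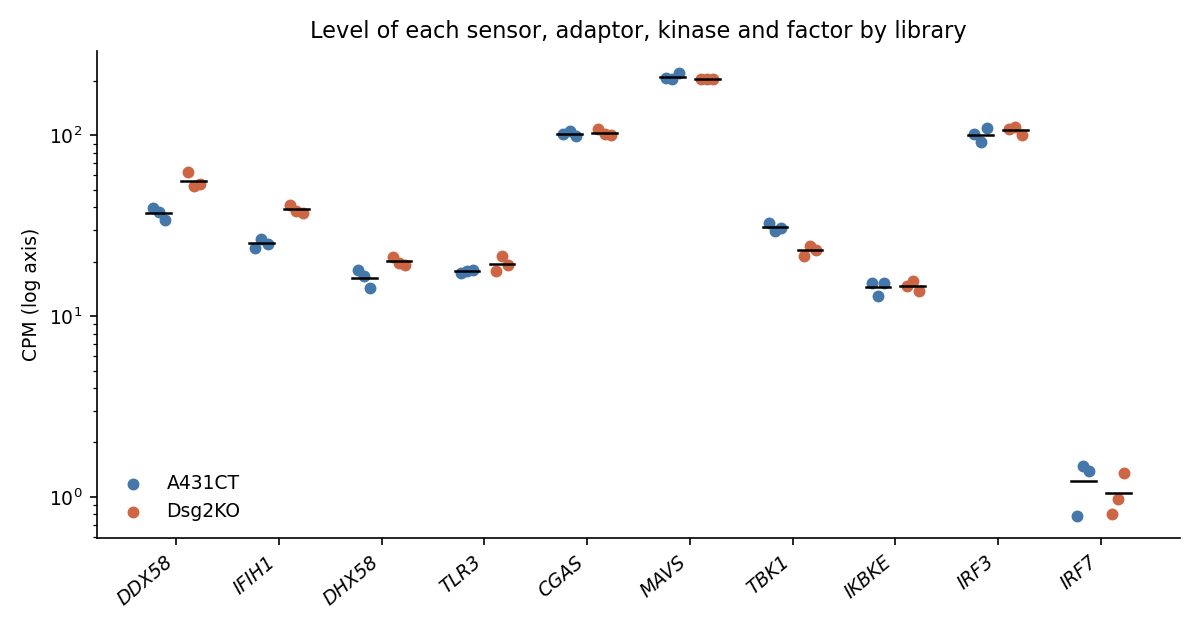
Level of each of the 10 genes in CPM (log axis) in the 3 A431CT (blue) and 3 Dsg2KO (orange) libraries, with the mean as a bar. The libraries of the lines separate for DDX58, IFIH1, DHX58, TBK1 and, narrowly, MAVS, and IRF7 lies far under the rest at 0.786 to 1.47 CPM.

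DDX58 was counted at 39.5, 37.5 and 34.0 CPM in the A431CT libraries and at 62.8, 52.1 and 53.7 CPM in the Dsg2KO libraries. Every Dsg2KO library lay above every A431CT library, and the highest was Dsg2KO replicate 1. DDX58 rose by 0.60 on the log2 scale (standard error 0.08, adjusted p = 4.49e-05, edgeR), a ratio of 1.52 with a 95% interval of 1.35 to 1.70. Since whole cultures were sequenced, more cells with this RNA and more RNA per cell cannot be told apart, here and for the other genes. The gene lies on the minus strand of chromosome 9 of GRCh38 from 32455302 to 32526208. GENCODE places a longer gene on the same strand across its exons, which has no row in the count table, so reads from the shared exons cannot be told apart.

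IFIH1 stood at 23.8, 26.8 and 25.04 CPM in A431CT and at 41.1, 38.2 and 37.2 CPM in Dsg2KO cells. Again the libraries did not overlap, and the gap between the nearest libraries was wider than the spread within either line. It rose by 0.62 (standard error 0.07, adjusted p = 1.64e-05, edgeR), a ratio of 1.54 with a 95% interval of 1.38 to 1.71. IFIH1 is on the minus strand of chromosome 2 from 162267074 to 162318684. Non-overlapping libraries with higher levels in Dsg2KO cells were found for 3 of the 10 genes and for 21.2% of all tested genes.

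DHX58, whose product LGP2 lacks the signaling domains of the other helicases and modulates them, had fewer counts and a smaller log2 fold change, and the difference in change was tested only as the ratio to DDX58 given with the other ratios. Its libraries read 18.1, 16.6 and 14.3 CPM in A431CT and 21.3, 19.8 and 19.2 CPM in Dsg2KO cells. The libraries separated here too, although A431CT replicate 1 came close to the lowest Dsg2KO library. DHX58 rose by 0.30 by adjusted p alone (standard error 0.10, adjusted p = 0.0353, edgeR), under the fold change threshold. The adjusted p rose to 0.058 without A431CT replicate 2, 0.14 without A431CT replicate 3, 0.124 without Dsg2KO replicate 1, 0.0648 without Dsg2KO replicate 2 and 0.0771 with DESeq2, and the alternatives spanned 0.0214 to 0.14. DHX58 lies on chromosome 17 from 42101404 to 42112714.

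Ratios of counts within a library do not depend on how libraries are scaled. The ratios given here were chosen after the levels had been seen, 5 were computed, and a test is given only for those among the helicases. For every 100 DDX58 counts there were 60.2, 71.5 and 73.7 IFIH1 counts in A431CT and 65.5, 73.4 and 69.4 in Dsg2KO cells, so that the libraries were intermixed (p = 0.9, exact two-sided permutation test, n = 3 per line, 0.9 after Benjamini-Hochberg adjustment over the 5 ratios). For every 100 DDX58 counts there were 45.8, 44.2 and 42.2 DHX58 counts in A431CT and 34.0, 37.9 and 35.7 in Dsg2KO cells. These did not overlap (p = 0.1, exact permutation test, the smallest that 3 against 3 allows, 0.125 adjusted).

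The sequences upstream of IFIH1 and DDX58, the genes past both thresholds, and of TBK1, the gene that was lower, are shown as the 250 bases before the RefSeq start site on the gene's own strand. Capitals mark matches to the core of the interferon-stimulated response element, which IRF and STAT factors are known to bind, searched on both strands as GAAANNGAAA, and to the same letters with a single spacer base, GAAANGAAA.
IFIH1: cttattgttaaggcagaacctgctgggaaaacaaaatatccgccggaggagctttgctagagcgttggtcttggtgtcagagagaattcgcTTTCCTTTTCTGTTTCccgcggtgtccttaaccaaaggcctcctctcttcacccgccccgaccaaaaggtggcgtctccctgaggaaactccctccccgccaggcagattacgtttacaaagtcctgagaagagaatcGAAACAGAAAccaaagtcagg
DDX58: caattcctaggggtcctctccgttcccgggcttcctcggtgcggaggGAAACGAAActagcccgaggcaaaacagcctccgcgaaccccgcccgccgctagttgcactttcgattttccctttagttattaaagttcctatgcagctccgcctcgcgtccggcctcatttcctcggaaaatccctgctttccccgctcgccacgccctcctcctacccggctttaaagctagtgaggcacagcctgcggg
TBK1: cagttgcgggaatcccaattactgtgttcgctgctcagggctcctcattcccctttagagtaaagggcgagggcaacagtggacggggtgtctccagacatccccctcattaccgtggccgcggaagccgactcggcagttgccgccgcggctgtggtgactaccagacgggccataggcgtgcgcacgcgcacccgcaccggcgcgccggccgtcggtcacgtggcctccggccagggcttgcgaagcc
They are taken from RefSeq, build GRCh38.p14, at chr2:162318685-162318934 (minus strand), chr9:32526197-32526446 (minus strand) and chr12:64451870-64452119 (plus strand). In IFIH1, 3 matches to GAAANNGAAA were found, of which those at -159 and -153 from the start read on the opposite strand and share 4 bases, and the other begins at -21. DDX58 held no match to this pattern and 1 to the form with a single spacer base, GAAACGAAA at -203. That form was added after the DDX58 letters had been seen. The TBK1 window held neither. Over all 35116 RefSeq windows of 300 bases, 250 before and 50 after the start, 3.57% held GAAANNGAAA and 3.12% held GAAANGAAA on either strand. Over the 14789 windows of tested genes these shares were 2.92% and 2.50%. Windows were matched for 6 of the 10 genes, and among the remaining 3 of them TLR3 held 1 match to GAAANNGAAA, across its start, while MAVS and IKBKE held none. TLR3 was also the only one of the 6 with TTCNNNGAA, the core of the STAT element called GAS. Of all windows 7.66% held it, and of those of tested genes 6.22%. DHX58, CGAS, IRF3 and IRF7 were not in the sequence table. A match describes the letters only, and binding was not measured.

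TLR3 and CGAS, the receptors outside the helicase family, did not pass the test. TLR3 was at 17.3, 17.8 and 18.0 CPM in A431CT and 17.8, 21.5 and 19.2 CPM in Dsg2KO cells. The lowest Dsg2KO library lay among the A431CT libraries. Its log2 fold change of 0.14 had a 95% interval of -0.06 to 0.34 (adjusted p = 0.29, edgeR). CGAS was at 101.4, 105.6 and 99.4 CPM in A431CT and 107.6, 101.9 and 100.3 CPM in Dsg2KO cells, and the libraries were intermixed. The interval for CGAS, -0.08 to 0.11 around 0.02, was among the narrowest of the set (adjusted p = 0.84, edgeR). TLR3 lies on the plus strand of chromosome 4 from 186068911 to 186088073, and CGAS on the minus strand of chromosome 6 from 73413515 to 73452297. CGAS shares 180 bases of exon with DDX43 on the opposite strand, which was too low to be tested, at 0.331 CPM in A431CT and 0.414 CPM in Dsg2KO cells.

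MAVS, the mitochondrial adaptor of RIG-I and MDA5, had the most counts of the set. It was at 206.1, 205.9 and 221.3 CPM in A431CT and at 205.1, 205.4 and 205.4 CPM in Dsg2KO cells. All Dsg2KO libraries lay below the A431CT libraries, though A431CT replicates 1 and 2 were very close to them and A431CT replicate 3 stood apart. The log2 fold change was -0.04 (95% interval -0.13 to 0.05, adjusted p = 0.503, edgeR). MAVS lies on the plus strand of chromosome 20 from 3846799 to 3876123. MAVS and TBK1 were the 2 genes of the set with lower, non-overlapping Dsg2KO libraries, a pattern of 21.4% of all tested genes. DDX58, IFIH1 and DHX58 together had 39.5, 39.3 and 33.1 counts per 100 MAVS counts in A431CT and 61.1, 53.6 and 53.6 in Dsg2KO cells. The helicases and MAVS had each separated the lines in opposite directions, so this ratio restates their levels.

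Of the kinases that act on IRF3 and IRF7, TBK1 fell and IKBKE did not pass. TBK1 was at 32.6, 29.6 and 30.5 CPM in A431CT and at 21.5, 24.5 and 23.3 CPM in Dsg2KO cells. Every Dsg2KO library lay below every A431CT library. TBK1 fell by 0.42 on the log2 scale (standard error 0.08, 95% interval -0.58 to -0.25, adjusted p = 8.34e-04, edgeR), which left 0.749 of the A431CT level and did not reach the fold change threshold. IKBKE was at 15.3, 13.0 and 15.2 CPM in A431CT and 14.8, 15.6 and 13.8 CPM in Dsg2KO cells, fully intermixed, with a log2 fold change of 0.02 (95% interval -0.20 to 0.25). Per 100 TBK1 counts there were 46.9, 43.8 and 49.7 IKBKE counts in A431CT and 68.5, 63.6 and 59.2 in Dsg2KO cells. DDX58 was counted 121, 127 and 111 times per 100 TBK1 counts in A431CT and 292, 212 and 230 times in Dsg2KO cells. Both ratios restate the lower level of TBK1 and, for DDX58, its higher level. IKBKE lies on the plus strand of chromosome 1 from 206470476 to 206496889. Noncoding genes without a row in the table overlap exons of both kinases.

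The transcription factors at the end of the pathway were very unequal in level. IRF3 was at 101.1, 91.5 and 110.0 CPM in A431CT and 108.3, 110.6 and 100.3 CPM in Dsg2KO cells, with a log2 fold change of 0.08 (95% interval -0.05 to 0.21, adjusted p = 0.381, edgeR). It shares 734 bases of exon with BCL2L12 on the opposite strand, which was at 60.1 ± 4.97 CPM in A431CT and 65.2 ± 2.93 CPM in Dsg2KO cells (SD, n = 3) and did not pass either. IRF7 had 10, 20 and 18 counts in A431CT and 12, 16 and 22 counts in Dsg2KO cells. At this depth its log2 fold change of -0.22 had a 95% interval from -1.02 to 0.59 (adjusted p = 0.719, edgeR). That is wide enough to hold a fall of the size seen for TBK1 or a rise of the size seen for DHX58. IRF3 lies on the minus strand of chromosome 19 from 49659569 to 49665875 and IRF7 on that of chromosome 11 from 612553 to 615983.

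**Figure D2:**
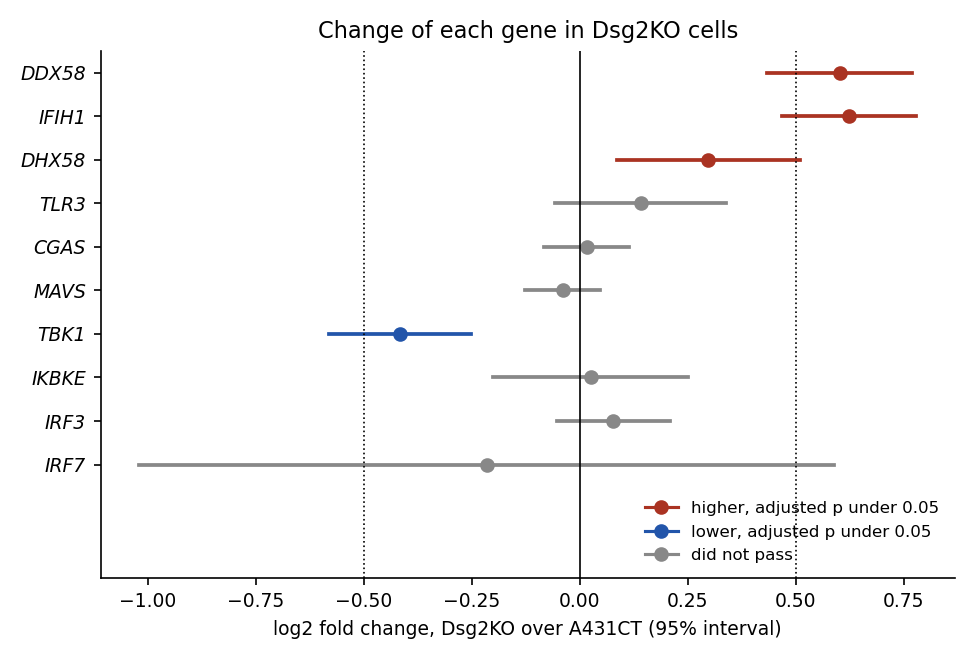
Log2 fold change of each gene in Dsg2KO over A431CT cells with its 95% interval (red, higher and blue, lower with an adjusted p under 0.05; grey, not passed; dotted lines, the fold change threshold of 0.5). DDX58 and IFIH1 lie beyond the threshold at 0.60 and 0.62, TBK1 lies at -0.42, and the interval of IRF7 is the widest.

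Levels were set side by side per kb of the canonical GENCODE transcript, since longer RNAs give more fragments. In A431CT cells IRF3 was highest at 63.2 ± 5.80 CPM per kb (SD, n = 3), followed by CGAS at 31.9 ± 0.988, MAVS at 18.0 ± 0.752 and TBK1 at 10.2 ± 0.494. DDX58, IFIH1 and DHX58 came next at 7.99 ± 0.605, 7.04 ± 0.433 and 6.31 ± 0.728, and the libraries of DDX58 overlapped those of IFIH1, as did those of IFIH1 and DHX58. IKBKE at 4.47 ± 0.401, TLR3 at 2.94 ± 0.0581 and IRF7 at 0.634 ± 0.196 were the lowest. In Dsg2KO cells DDX58 at 12.1 ± 1.25 and IFIH1 at 10.9 ± 0.567 stood above DHX58 at 7.75 ± 0.433 and TBK1 at 7.65 ± 0.498, and the libraries overlapped within each of these pairs. TBK1 was thus the fourth of the 10 genes in A431CT and the seventh in Dsg2KO cells, while the other positions outside the helicases were kept. Which transcripts the cells used was not measured, and the canonical transcript of MAVS, at 11.7 kb, is the longest of the set.

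**Figure D3:**
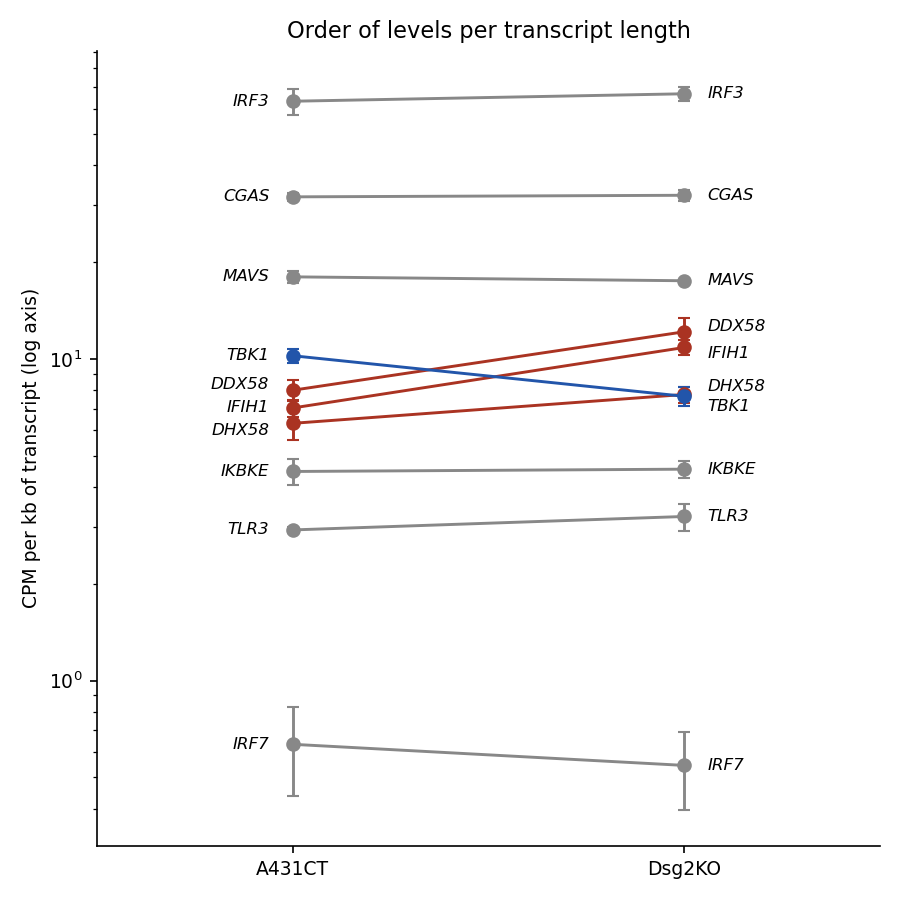
Mean level per kb of canonical transcript (log axis) in A431CT and Dsg2KO cells, with SD over 3 libraries (red, higher and blue, lower in Dsg2KO cells by adjusted p; grey, not passed). TBK1 goes from above the 3 helicases to the level of DHX58 at 7.65 CPM per kb.

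Neighbouring genes moved together in some stretches of the chromosomes, as around SLC15A4 on chromosome 12, where 47 of 49 neighbours had a negative log2 fold change, so each gene was set beside up to 25 tested genes on either side of it. The median over the 50 neighbours was -0.01 for DDX58 and 0.03 for IFIH1, and 49 of 50 lay below the gene itself in each case. DHX58 was higher while 42 of its 50 neighbours were negative, with a median of -0.13, and 49 of them lay below it. TBK1, on chromosome 12 from 64452090 to 64502114, has neighbours that were mostly negative as well, 39 of 50, with a median of -0.13. TBK1 lay below 48 of them, and its log2 fold change less that median was -0.28. IKBKE has neighbours with a median of 0.15, CGAS of -0.09 and TLR3 of -0.10. DNA copy number was not measured, and its part in these values was not tested.

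**Figure D4:**
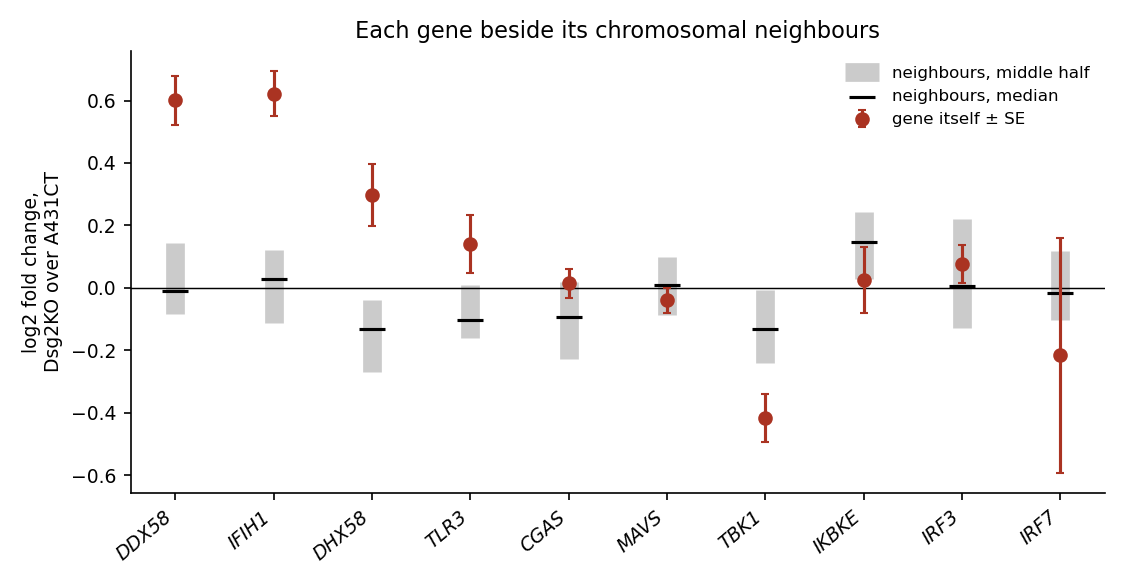
Log2 fold change of each gene with its standard error (red) beside the median (bar) and the middle 50% (grey) of its neighbours on the chromosome. DDX58, IFIH1 and DHX58 stand above their neighbours, at 0.60, 0.62 and 0.30, and TBK1 at -0.42 stands below a median of -0.13.

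Other genes of the pathways were taken from lists of regulators, relay proteins and outputs. Tests were possible for 98 of these genes, whose log2 fold changes had a median of 0.02, and 11 passed both thresholds as higher and 2 as lower, against 2.99% and 3.03% of all tested genes. By adjusted p alone 28 were higher and 11 lower, against 14.3% and 15.3% of all tested genes. DESeq2 called 10 and 2 of them past both thresholds, against 345 and 337 of all 12857 tested genes. Most of the higher ones, 8 of 11, came from a single list of genes that IRF3 is known to induce.

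Among 19 tested regulators of the RNA sensors, 1 passed both thresholds as higher and 0 as lower with edgeR and with DESeq2. Over all tested genes 2.99% and 3.03% did with edgeR. By edgeR's unadjusted p under 0.05 there were 3 higher and 4 lower, against 19.5% and 20% of all tested genes. The gene past both thresholds was RNF125, a ubiquitin ligase that marks RIG-I and MDA5 for breakdown. RNF125 had 8, 14 and 6 counts in A431CT and 30, 31 and 23 counts in Dsg2KO cells, without overlap. It rose by 1.305 on the log2 scale (standard error 0.38, adjusted p = 0.0165, edgeR), and the adjusted p lay between 0.0578 and 0.0725 when A431CT replicate 1 or 3 or Dsg2KO replicate 1 or 2 was left out. RNF125 starts 469.8 kb from the end of DSG2 on chromosome 18, and TRAPPC8 and B4GALT6, the tested genes between them, did not pass, with log2 fold changes of 0.08 and 0.26. RNF135, a ligase that activates RIG-I, was named after its values were seen. It rose from 27.1 ± 1.48 to 33.2 ± 3.00 CPM (SD, n = 3), a log2 fold change of 0.29 (adjusted p = 0.0126, edgeR, and 0.0661 without Dsg2KO replicate 3). TRIM25, another ligase of the same receptor, was at 402 CPM in A431CT and 411 CPM in Dsg2KO cells and did not pass.

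In the endosomal Toll-like receptor list 9 of 14 genes in the table were tested. The list also holds LY96 and CD14 and is not limited to endosomal genes. Past both thresholds 0 were higher and 1 lower by edgeR and by DESeq2, against 2.99% and 3.03% of all tested genes by edgeR. By edgeR's unadjusted p under 0.05, 0 were higher and 3 lower, against 19.5% and 20%. The same 3, SLC15A4, HSP90B1 and CNPY3, were lower by adjusted p, against 15.3% of all tested genes. TLR7, TLR9 and TICAM2 had no count in any library, and TLR8 was at 0.18 CPM in A431CT and 0.21 CPM in Dsg2KO cells. The lower gene was SLC15A4, an endolysosomal transporter needed for signaling by these receptors, at 23.2, 21.8 and 24.5 CPM in A431CT and 15.7, 14.4 and 14.0 CPM in Dsg2KO cells. It fell by 0.66 (standard error 0.09, adjusted p = 6.73e-05, edgeR), and the 49 tested neighbours of it on chromosome 12 had a median of -0.51.

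In the DNA sensing list 18 genes were tested, 0 passing both thresholds as higher and 1 as lower by edgeR and by DESeq2. Over all tested genes 2.99% and 3.03% did by edgeR. By edgeR's unadjusted p under 0.05 there were 6 higher and 2 lower, against 19.5% and 20% of all tested genes. The lower gene past both thresholds was RNASEH2A, a subunit of the nuclease that removes RNA from DNA hybrids. It was at 35.3, 37.7 and 35.7 CPM in A431CT and 24.9, 27.9 and 23.1 CPM in Dsg2KO cells. It fell by 0.52 (standard error 0.08, adjusted p = 1.61e-04, edgeR), and only just passed the fold change threshold, being at -0.49 without A431CT replicate 2, at -0.46 without Dsg2KO replicate 3 and at -0.49 when scaled by total counts. All 50 of its neighbours lay above it, and their median was -0.01. The other listed subunits of this nuclease passed by adjusted p alone and in opposite directions. RNASEH2B had a log2 fold change of -0.34 (adjusted p = 0.0128, edgeR) and RNASEH2C of 0.20 (adjusted p = 0.017, edgeR). STING1, the adaptor downstream of cGAS, and SLC19A1, an importer of its second messenger, were named after their values were seen. STING1 rose from 35.5, 32.2 and 33.8 CPM to 43.9, 47.2 and 38.3 CPM, a log2 fold change of 0.35 (adjusted p = 0.0036, edgeR), while CGAS itself did not pass. SLC19A1 rose by 0.41, and its 33 tested neighbours on chromosome 21 had a median of 0.46.

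None of 17 tested genes of the TBK1 and IKBKE complex passed both thresholds with edgeR, and 0 did with DESeq2. Over all tested genes 2.99% passed as higher and 3.03% as lower with edgeR. By edgeR's unadjusted p under 0.05, 1 was higher and 6 were lower, against 19.5% and 20% of all tested genes. By its adjusted p alone 0 were higher and 2, TRAF2 and TNIP1, were lower, against 14.3% and 15.3%. TRAF2, a ubiquitin ligase, kept this in 3 of 13 refits and lost it without any library but A431CT replicate 2 (adjusted p up to 0.198), and TNIP1, a ubiquitin-binding inhibitor, kept it in 9 of 13 and lost it without A431CT replicate 1 or 2 or Dsg2KO replicate 1 or 3 (up to 0.0964, edgeR). Its most abundant members were DDX3X, a helicase that binds the kinases, at 690 and 719 CPM, and FADD, the adaptor of death receptors, at 498 and 488 CPM, in A431CT and Dsg2KO cells. DDX3X and FADD had log2 fold changes of 0.06 and -0.03 and did not pass.

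Among 15 further proteins that bind or answer double-stranded RNA, 1 passed both thresholds as higher and 0 as lower by edgeR and by DESeq2. Over all tested genes 2.99% and 3.03% did by edgeR. By edgeR's adjusted p alone 6 were higher and 2 lower, against 14.3% and 15.3% of all tested genes. The counts were the same by its unadjusted p under 0.05, against 19.5% and 20%. DDX60, a helicase proposed to assist RIG-I and MDA5, was at 34.8, 34.5 and 33.2 CPM in A431CT and 52.9, 51.1 and 48.7 CPM in Dsg2KO cells. It rose by 0.57 (standard error 0.06, adjusted p = 6.96e-06, edgeR), near the changes of DDX58 and IFIH1. ADAR, which edits double-stranded RNA and was named after its values were seen, rose by adjusted p alone, from 438 ± 6.80 to 489.6 ± 20.8 CPM (SD, n = 3), a log2 fold change of 0.16 (adjusted p = 0.0044, edgeR).

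Of 7 tested relatives of IRF3 and IRF7, IRF9 was the 1 gene past both thresholds, where 2.99% of all tested genes passed as higher. IRF9, the DNA-binding part of the complex that answers type I interferon, had 9, 28 and 23 counts in A431CT and 77, 145 and 102 counts in Dsg2KO cells. It rose by 2.15 (standard error 0.31, adjusted p = 1.06e-04, edgeR), more than any of the 10 sensor and adaptor genes. By edgeR's adjusted p alone 2 of the 7 were higher and 0 lower, against 14.3% and 15.3% of all tested genes. The second was IRF1, named after its values were seen, with a log2 fold change of 0.14 (adjusted p = 0.036, edgeR). By edgeR's unadjusted p or by DESeq2, 0 of the other IRF factors were lower.

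None of the 10 interferon ligand genes on the list passed the low-count filter, and 8 of them were at or under 3 counts in every library. IFNB1 had 0, 0 and 0 counts in A431CT and 1, 2 and 1 counts in Dsg2KO cells, which is at or under the floor of 3 counts in both, so that no fold is given. A count of 3 corresponds to between 0.184 and 0.236 CPM in these libraries. IFNE had 5, 5 and 7 counts in A431CT and 3, 1 and 5 counts in Dsg2KO cells. No difference in interferon RNA could be tested at this depth.

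Genes that IRF3 can induce were mostly higher in Dsg2KO cells. Of 14 tested genes all had a positive log2 fold change, with a median of 0.63, 8 passed both thresholds as higher and 0 as lower, against 2.99% and 3.03% of all tested genes. By adjusted p alone 12 were higher, against 14.3%. DESeq2 called 7 past both thresholds as higher, against 345 of all 12857 tested genes. By edgeR's unadjusted p under 0.05 there were 0 lower. The study's text names IFIT2, CCL5 and CXCL11 from the same libraries, so this list is not independent evidence of its direction. IFIT3, IFIT1, IFIT2 and HERC5 had the smallest p-values among those past both thresholds, with log2 fold changes of 0.76, 1.05, 0.69 and 0.64. The study also reports IFIT1 and IFIT3 as higher by qPCR in Dsg2KO A431 cells and in HaCaT cells given siRNA against DSG2. In the HaCaT cells it reports that knockdown of RelA reversed this rise, and it counts both genes as NF-κB targets. Many of the listed genes also answer interferon receptors, and these inputs cannot be told apart in the sequenced libraries. Of the 12 genes of the list with a sequence window, which include the untested CXCL10, 8 held GAAANNGAAA in at least 1 window. Some genes have more than 1 window, and RSAD2 held the pattern in only 1 of 2. Over all RefSeq windows 3.57% held it, and over those of tested genes 2.92%, which are shares per window and not per gene.

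**Figure D5:**
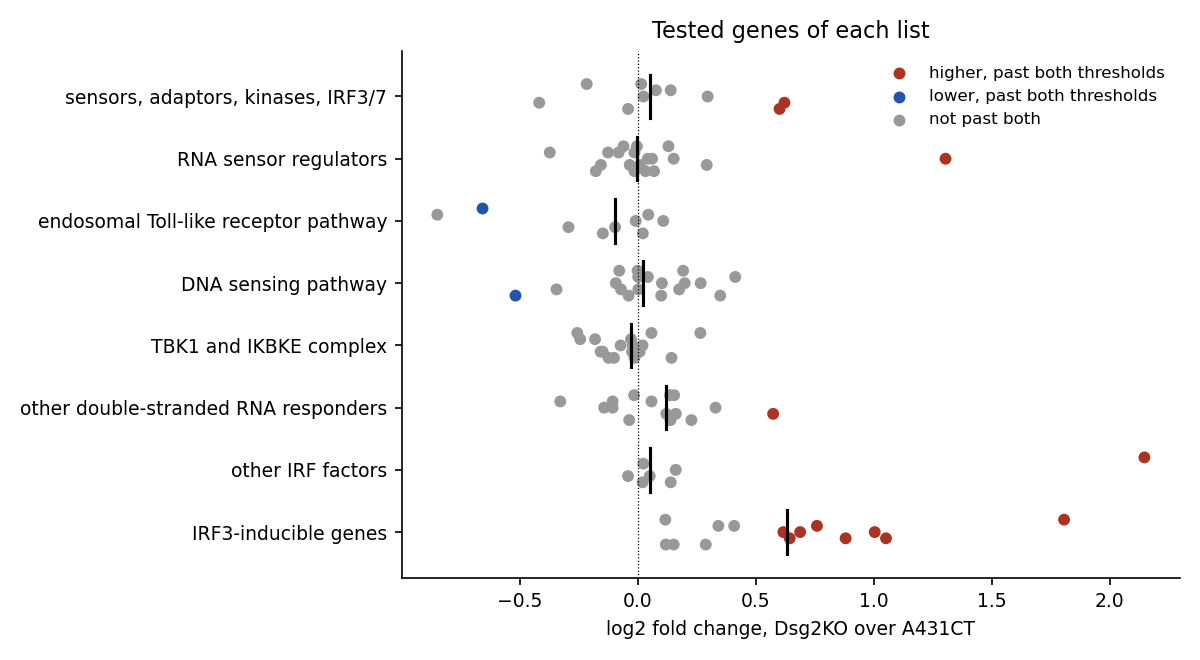
Log2 fold change of the tested genes of each list (points; red, higher and blue, lower past both thresholds) with the median of the list (bar). The IRF3-inducible genes have a median of 0.63, and the medians of the other lists lie between -0.10 and 0.12.

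The 5 tested genes whose levels over the 6 libraries lay nearest to the mean profile of DDX58, IFIH1 and DHX58 were JPH2, SORCS2, APBB2, FP565260.6 and TCF7L1. The measure was the distance between log2 CPM values centred on each gene's mean, and it lay between 0.0795 for JPH2 and 0.116 for TCF7L1. DDX58, IFIH1 and DHX58 themselves lay farther from this mean profile, at 0.145, 0.227 and 0.285. The mean profile averages helicases with unequal changes, so a gene near it need not follow any one of them. The log2 fold changes of the 5 nearest genes were between 0.48 and 0.58. All of these profiles share the contrast between the 2 lines and the same libraries.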

How the data were processed

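The authors sequenced polyadenylated RNA of 3 A431CT and 3 Dsg2KO libraries, made with a NEBNext kit from RNA isolated with TRIzol per the study's methods and with a Direct-zol column kit per the labels, and deposited raw read counts per gene. The submitters' processing notes name GRCh38 (hg38). The annotation and the strand setting of the counting are not given in the sources used here. Groups and replicate numbers came from the labels.

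Genes were kept with edgeR's filterByExpr (minimum count 10, minimum total 15), which left 12857 of 21462. Libraries were scaled by TMM and tested with edgeR 4.0.16 (glmQLFit and glmQLFTest, R 4.3.3, limma 3.58.1) over the 6 libraries, with no covariate and Benjamini-Hochberg adjustment. The biological coefficient of variation was 4.79%. Alternatives were no filter, at least 10 counts in every library, RLE scaling, total counts only, DESeq2 1.42.0, a likelihood ratio test, a replicate block, no or a higher fold change minimum (1), subtraction of the neighbours' median, and leaving out each library. Same-numbered libraries were not paired, since the correlations of their deviations from the group means were -0.0027, 0.0135 and 0.0539.

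The 10 genes and the pathway lists were chosen with earlier results of these data known. Named from each list were the genes past both thresholds, at most 4 per direction by p, or else the 2 with the highest mean CPM. The interferon ligands, genes overlapping one of the 10, and the 5 nearest profiles were also taken by rule. RNF135, TRIM25, STING1, SLC19A1, RNASEH2B, RNASEH2C, ADAR, IRF1, HSP90B1, CNPY3, TRAF2, TNIP1, KRT6A, SFN, TRAPPC8, B4GALT6, the Toll-like receptors at or near 0 counts and TICAM2 were named after their values were seen. LYZ and ITGAX were too. Positions and canonical transcripts came from GENCODE 44 on GRCh38. Symbols of 12386 tested genes were placed there, with DDX58 found as RIGI through RefSeq synonyms. Promoter windows came from RefSeq (GRCh38.p14). Figures and exact permutation tests used Python 3.11.15, scipy 1.17.1 and matplotlib 3.10.9. Floors of 3 counts and intervals cover counting error or the spread between libraries only.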

Additional observations from a re-analysis of the deposited data

How the results depend on the processing

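DDX58 and IFIH1 passed both thresholds under every alternative that refitted the test, with log2 fold changes of 0.52 to 0.65 and 0.58 to 0.67, and TBK1 kept an adjusted p under 0.05 in 13 of 13 fits. DHX58 kept it in 8 of 13. Without a fold change minimum 1835 genes were higher and 1967 lower in all, of the 10 genes 1 was lower, and of the pathway genes 28 were higher and 11 lower. With a minimum of 1 these counts were 137 and 113 over all genes, 0 of the 10 genes higher, and 5 higher and 0 lower in the pathway lists. Scaled by total counts only, 1 pathway gene was lower. Leaving out single libraries gave 336 to 405 genes higher and 341 to 390 lower, 2 of the 10 genes higher and 0 lower each time, and 8 to 10 pathway genes higher and 1 to 2 lower. Leaving out single libraries, the log2 fold change of CGAS lay between -0.013 and 0.041, below 0 at -0.0037 without A431CT replicate 3 and at its lowest without Dsg2KO replicate 1, and that of IKBKE lay between -0.049 and 0.0704, below 0 at its lowest without A431CT replicate 2 and at -0.018 without Dsg2KO replicate 2, with neither gene past the test in any fit. The causes were not tested. With the replicate block 2 of the 10 genes were higher and 0 lower, 386 genes were higher and 383 lower in all, and no call of the 10 genes changed, DHX58 having an adjusted p of 0.0215 by edgeR. With the median of the neighbours taken off, the log2 fold change of IKBKE was -0.12, that of TBK1 -0.28 and that of DHX58 0.43. Depth limits IRF7 and the interferon ligands most.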
